A study of Mus musculus with 6 samples.

Results

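The Meis, Pbx and Pknox genes encode homeobox cofactors of the TALE class, named for a three-amino-acid loop extension in the homeodomain. Described here are 8 of them, Meis1, Meis2, Meis3, Pbx2, Pbx3, Pbx4, Pknox1 and Pknox2, of 19937 genes tested. They were chosen by name, as a family, and not by a measured value. For each, the probe set that the array annotation ties to that gene symbol alone was used, and where a gene has several such probe sets the brightest was taken. Each of the 8 had a single one.

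Pbx proteins form heterodimers with Meis or Pknox proteins, and these complexes join Hox proteins on DNA and sharpen the choice of sites. Meis proteins also hold Pbx proteins in the nucleus. In blood, Meis1 and Pbx3 are best known as partners of Hoxa9 in acute myeloid leukaemia, where Meis1 speeds the disease that Hoxa9 alone causes slowly. Pknox1 (also called Prep1) competes with Meis1 for Pbx partners and is known to restrain it.

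The cells were mouse haematopoietic stem and progenitor cells (HSPCs) transformed by HoxA9 and Meis1, called A9M, a culture model of acute myeloid leukaemia. All arrays therefore came from cells that carry both introduced genes, grown in serum with the cytokines IL3, IL6 and SCF. The 3 DMSO samples received the solvent and the 3 UNC0638 samples an inhibitor of the histone methyltransferases G9a and GLP, each for 5 days. The labels give no dose, do not say whether a group's samples were separate cultures, and do not say whether the line is 1 clone. A p-value here therefore reflects only how much these samples vary, and that variation could be technical. The comparison asks which cofactor transcripts differ after inhibition of G9a activity.

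Values are the authors' processed intensities of Affymetrix probe sets on a linear scale, 1 per array. Array medians ran from 50.4 to 54.9 and lower quartiles from 20.9 to 22.8, so a value near 20 is dim on these arrays. The number of arrays limits the precision. A difference is the mean of log2(intensity + 16) in UNC0638 minus that in DMSO, and folds are on that scale. The intensity of a probe set depends on its probes, so levels are compared between groups for the same gene only. To check the labelled cell type, each marker's mean over the 6 arrays was set against the highest array median. The means of 10 of 10 myeloid progenitor markers, among them Mpo, Elane and Kit, lay above it. Of 9 measured B and T cell markers 0 did by this measure. Pax5, Cd79b and Cd3e, with means of 54.7, 52.7 and 51.8, nevertheless lay above the medians of some single arrays. Also above the highest array median were 5 of 5 mast cell and basophil markers and 3 of 3 measured megakaryocyte markers. Of the stromal markers 3 of 5 lay above it, and of the measured erythroid markers 2 of 5. The measure therefore does not single out myeloid progenitors. In these bulk samples less RNA per cell and fewer cells of a type cannot be told apart.

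UNC0638 changed none of the 8 cofactors at an adjusted p under 0.05 in limma, and 1 of them, Pbx3, had an unadjusted p below 0.05 by limma. Pbx3 was 1.19-fold higher in UNC0638, and the other 7 lay between 0.917-fold and 1.10-fold. Over all genes the same test called 134, or 0.672% (0.371% higher and 0.301% lower in UNC0638), and 12.7% had an unadjusted p under 0.05. With 8 members a count of 0 called is thus near the background and says nothing particular about the family. The intervals say more: the 95% limits of all 8 members lay between 0.758-fold and 1.354-fold, and so inside 1.5-fold either way. Meis2 and Pknox2 were near the lower quartiles of the arrays, where the constant added before the logarithm shrinks folds. Their limits therefore bound the change in these transcripts less well. With 1 added instead, the upper limit of Pknox2 was 1.438-fold rather than 1.275-fold, still inside 1.5-fold. The median difference of the 8 was 0.0090, against 0.012 for all genes tested.

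**Figure D1:**
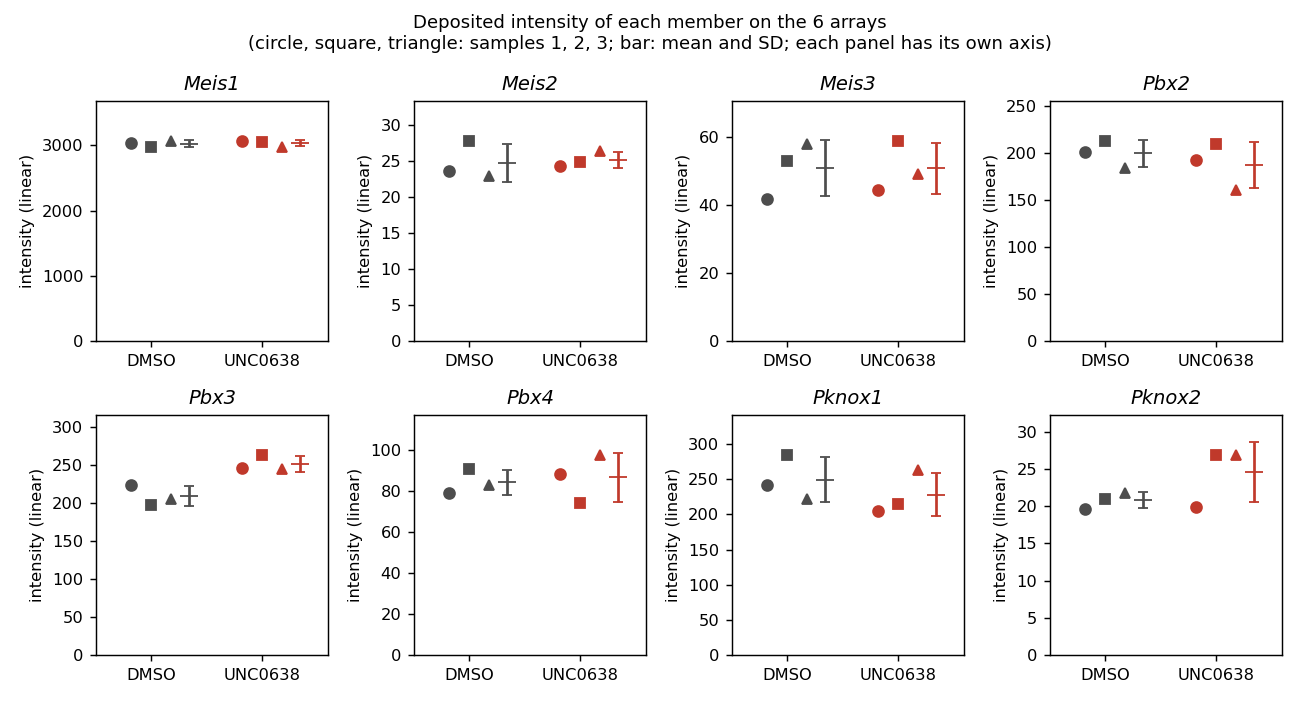
Deposited intensity (linear scale, vertical axis from 0) of each cofactor gene in the DMSO and UNC0638 samples, with the samples numbered 1 to 3 as circle, square and triangle and the mean and SD (n = 3) as a bar beside them. The 3 UNC0638 points of Pbx3 (245 to 264) lie above its DMSO points (198 to 224), and the groups overlap for the other 7 genes.

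Meis1, the transforming cofactor, was at 3042, 2974 and 3071 in the DMSO samples and at 3068, 3060 and 2982 in the UNC0638 samples. The groups overlapped almost fully. The means were 3029 ± 49.6 and 3037 ± 47.9 (SD, n = 3 each), with a log2 difference of 0.0036 (SE 0.072, 95% interval -0.16 to 0.17, adjusted p = 0.993 by limma). The coefficient of variation was 1.64% in DMSO and 1.58% in UNC0638. Its residual SD of 0.023 on the log2 scale compared with a median of 0.121 over all genes, and 112 genes had a smaller one. The SE in limma is drawn toward the spread of all genes. From the 6 values of Meis1 alone the SE was 0.019 and the 95% interval ran from -0.049 to 0.056. The brightest probe set of the series was at 19527. Whether the Meis1 probes were near saturation was not tested. The labels do not say whether the Meis1 probes read the introduced copy, the cells' own gene or both.

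Meis2, a paralogue best known from limb, eye and brain development, was dim. It was at 23.6, 27.9 and 23.0 in DMSO and at 24.3, 24.9 and 26.4 in UNC0638, just above the lower quartiles of the arrays. The UNC0638 values all lay within the range of the DMSO values. The log2 difference was 0.014 (SE 0.081, 95% interval -0.17 to 0.20, adjusted p = 0.972 by limma).

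Meis3, a paralogue known from hindbrain patterning, was at 41.8, 53.0 and 57.8 in DMSO and at 44.3, 58.8 and 49.1 in UNC0638. In both groups the sample numbered 1 was the lowest, and the groups overlapped. The log2 difference was -0.0019 (SE 0.119, 95% interval -0.27 to 0.27, adjusted p = 0.996 by limma). The coefficient of variation was 16.1% in DMSO and 14.6% in UNC0638, so its interval was wider than those of Meis1 and Meis2.

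Among the Pbx genes, whose products bind DNA together with Hox and Meis proteins, Pbx3 had the largest difference. Pbx3 was at 224, 198 and 206 in the DMSO samples and at 247, 264 and 245 in the UNC0638 samples. All 3 UNC0638 values lay above all 3 DMSO values. The means were 209 ± 13.5 and 252 ± 10.4 (SD, n = 3 each). The log2 difference was 0.25 (SE 0.081, 95% interval 0.066 to 0.44), which is 1.19-fold with limits of 1.05-fold and 1.35-fold. It had an unadjusted p of 0.0138 and an adjusted p = 0.237 by limma, so it did not pass the test over all genes. Over the 17 alternative settings the adjusted p ran from 0.163 to 0.492. Groups that do not overlap were found for 1 of 8 cofactors and for 17% of all genes, with UNC0638 above for 9.59% and below for 7.4%, so such a pattern is common here. By the absolute size of its difference Pbx3 stood at the 87.1 percentile of all genes.

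**Figure D2:**
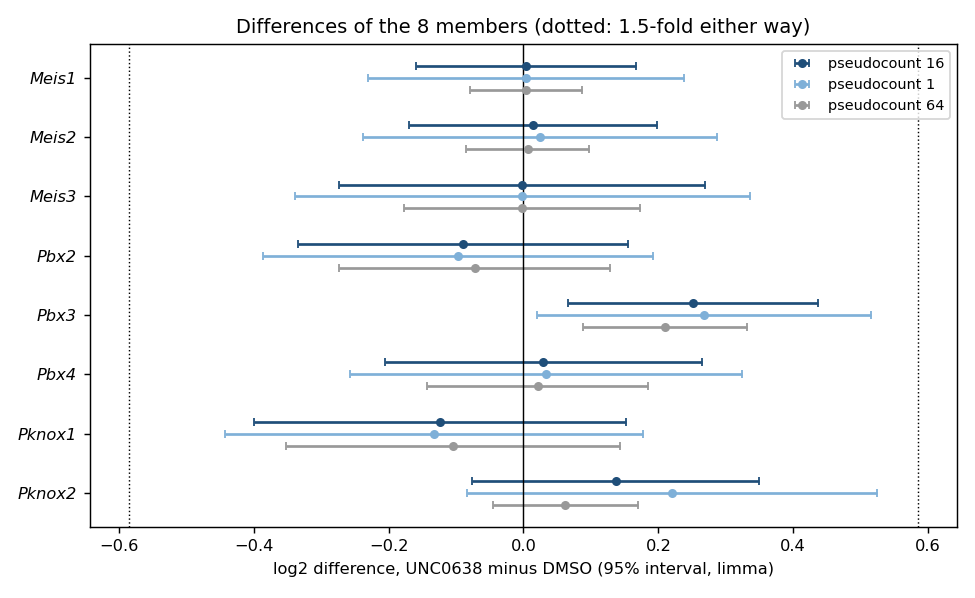
Log2 difference, UNC0638 minus DMSO, of each cofactor gene (points) with its 95% interval from limma (bars), for pseudocounts of 16, 1 and 64 added before the logarithm. Only the intervals of Pbx3 lie to the right of 0, and the intervals of all 8 genes stay inside the dotted lines at 1.5-fold with each of the 3 pseudocounts.

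Some markers of other cell types differed between the groups in the same samples. The summed intensity of 5 mast cell and basophil markers was 6672 to 7719 in DMSO and 8194 to 8825 in UNC0638. Mcpt8 had the largest difference of these (log2 difference 0.43, adjusted p = 0.0568 by limma), and its groups did not overlap. Fcer1a (0.33), Cpa3 (0.14), Ms4a2 (0.11) and Gata2 (0.053) also lay above 0, with overlapping groups. The summed intensity of 3 measured megakaryocyte markers was 809.5 to 1053 in DMSO and 590.9 to 803 in UNC0638. This sum followed Pf4 (log2 difference -0.66), while Itga2b (0.21) and Gp9 (0.029) lay above 0. For 5 measured erythroid markers it was 1816 to 1901 and 1361 to 1617. Most of that sum was Tfrc (-0.42), a gene of iron uptake, while Gata1 (0.12) and Epor (0.18) lay above 0 and the list median was -0.052. The sums of 4 measured B cell markers (128 to 135 against 140 to 164) and 5 T cell markers (161 to 166 against 174 to 209) were higher in UNC0638 at dim levels. Those of the 10 myeloid progenitor markers (24900 to 25730 against 25080 to 26870) and the 5 stromal markers (290.3 to 328.2 against 327.4 to 358.9) overlapped. Single myeloid progenitor markers differed more than that sum. Itgam (0.46, adjusted p = 0.0709 by limma), Cd34 (0.27) and Ptprc (0.255) had all UNC0638 values above the DMSO values. Elane, Prtn3, Ctsg and Cebpa lay below 0, and the list median was 0.051. No single marker passed the limma test over all genes, and 11 of the 37 measured (29.7%) had an unadjusted limma p under 0.05, against 12.7% of all genes. Their part in the Pbx3 difference was not tested. The array medians were also higher in UNC0638 (52.7 to 54.9) than in DMSO (50.4 to 52.5). With each array centred on its median the Pbx3 difference was 0.21, and under quantile normalization it was 0.27.

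The 3 genes whose profile over the 6 arrays lay nearest to that of Pbx3 were Man2b1, Spc25 and Ly6g2. Likeness was the mean absolute distance between log2 values, each gene centred on its own mean. Man2b1, a lysosomal mannosidase, was at a distance of 0.0213 and had a log2 difference of 0.26 (adjusted p = 0.194 by limma). Spc25, a subunit of the kinetochore's Ndc80 complex, was at 0.0231 and had a difference of 0.24 (adjusted p = 0.27). Ly6g2 was at 0.0240 with a difference of 0.21 (adjusted p = 0.312), at dim intensities of 15.4 ± 1.93 and 20.4 ± 1.27 (SD, n = 3 each). None of the 3 passed the test.

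Pbx2, a broadly expressed paralogue, was at 201, 212 and 184 in DMSO and at 192, 209 and 160 in UNC0638. In both groups the sample numbered 2 was the highest and the sample numbered 3 the lowest. The groups overlapped, with means of 199 ± 14.3 and 187 ± 24.7 (SD, n = 3 each) and a log2 difference of -0.090 (SE 0.107, 95% interval -0.33 to 0.15, adjusted p = 0.817 by limma). Without UNC0638 replicate 3, the lowest of its 6 values, the difference was 0.0085.

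Pbx4, a paralogue known mainly from the testis, was at 79.2, 91.1 and 83.2 in DMSO and at 88.3, 74.4 and 98.0 in UNC0638. The lowest and the highest values were both UNC0638 samples. The log2 difference was 0.029 (SE 0.103, 95% interval -0.21 to 0.26, adjusted p = 0.95 by limma).

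Pknox1, the competitor of Meis1 for Pbx partners, was at 242, 285 and 222 in DMSO and at 205, 215 and 263 in UNC0638. UNC0638 samples 1 and 2 lay below all DMSO samples, and sample 3 lay between the higher DMSO values. The means were 250 ± 32.4 and 228 ± 30.6 (SD, n = 3 each). The log2 difference was -0.12 (SE 0.121, 95% interval -0.40 to 0.15, adjusted p = 0.763 by limma), the lowest of the 8. With 1 array left out it ran from -0.22, without UNC0638 replicate 3, to -0.030, without DMSO replicate 2.

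Pknox2, a paralogue known from neural and muscle tissue, was at 19.6, 21.0 and 21.7 in DMSO and at 19.9, 26.9 and 26.9 in UNC0638. UNC0638 samples 2 and 3 lay above all DMSO samples and sample 1 lay among them. The log2 difference was 0.14 (SE 0.093, 95% interval -0.076 to 0.35, adjusted p = 0.633 by limma). The DMSO mean of 20.8 ± 1.08 (SD, n = 3) was lower than every array's lower quartile, where the pseudocount shrinks differences. With a pseudocount of 1 the difference was 0.22, with a 95% interval of -0.084 to 0.52, and with 64 it was 0.062. Without UNC0638 replicate 1 it was 0.22, with an adjusted p = 0.35 by limma.

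**Figure D3:**
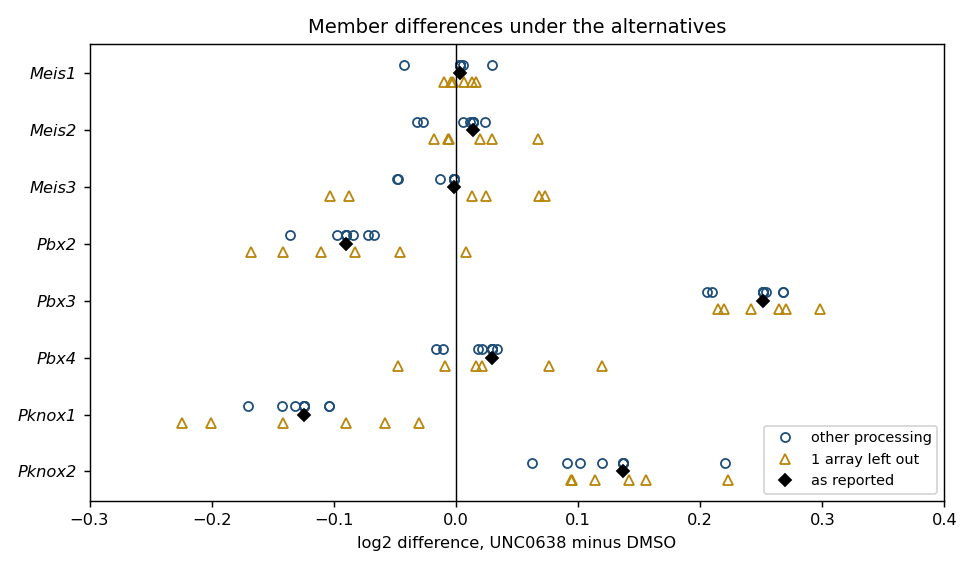
Log2 difference, UNC0638 minus DMSO, of each cofactor gene as reported (diamonds), under other processing (circles) and with 1 array left out (triangles). Pbx3 stays between 0.21 and 0.30, Pknox1 stays below 0 and Pknox2 above 0, and the points of the other 5 genes fall on both sides of 0.

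Within the family, 5 differences lay above 0 and 3 below, and the signs followed no subfamily. Meis1, Meis2 and Meis3 all had differences between -0.0019 and 0.014. The Pbx genes had differences of -0.090, 0.25 and 0.029, and the Pknox genes -0.12 and 0.14. After centring on the array medians 2 of the 8 differences lay above 0, and after quantile normalization 3 did. Pbx3, Pknox1 and Pknox2 kept their sign under each alternative run for them, and the other 5 changed it under at least 1.

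The other genes of the same pathway did not pass the test either. The test called 0.672% of all genes, so a count of 0 in lists this small is near the background. Of 9 TALE homeobox genes outside the family (Tgif, Irx and Mkx genes), 0 changed, and their median log2 difference was 0.028. The largest was that of Irx3, at 49.9 ± 2.48 in DMSO and 59.1 ± 4.82 in UNC0638 (SD, n = 3 each, log2 difference 0.19, adjusted p = 0.39 by limma). Its 3 UNC0638 values lay above its DMSO values, as was so for 9.59% of all genes. Of 10 measured genes of the HoxA cluster, which encode the Hox partners, 0 changed, with a median of -0.026. The largest was that of Hoxa10 (0.18, adjusted p = 0.643 by limma), at dim intensities of 23.7 ± 2.41 and 29.3 ± 7.52 (SD, n = 3 each). Without UNC0638 replicate 1 it was 0.31 and without UNC0638 replicate 2 it was 0.064. The HoxA list as a whole was dim, which limits what it can show. Its median DMSO intensity was 28.2, and 3 of the 10 genes had means below the lowest lower quartile of the arrays. Hoxa9, named after its values were seen, was at 348 ± 28.4 in DMSO and 320 ± 22.4 in UNC0638 (SD, n = 3 each). Its log2 difference was -0.12 (adjusted p = 0.686 by limma). Whether the Hoxa9 probes read the introduced copy, the cells' own gene or both is not given in the labels.

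Coregulators that Pbx and Meis proteins recruit were represented by 11 measured genes, among them the acetyltransferase genes Crebbp and Ep300 and the deacetylase genes Hdac1 and Hdac3. Of these 0 changed, and their median was 0.066. Ep300 had the largest difference, with 548, 563 and 614 in DMSO and 658, 695 and 743 in UNC0638. Its groups did not overlap, and the difference of 0.28 (SE 0.085) had an adjusted p = 0.215 by limma. The groups did not overlap in the other direction for the deacetylase gene Hdac1 (-0.16, adjusted p = 0.475) and the corepressor gene Sin3a (-0.23, adjusted p = 0.364 by limma), which were named after their values were seen. Over all genes 17% had groups that do not overlap, with UNC0638 above for 9.59% and below for 7.4%, so such a pattern is common here. Of 19 genes known to follow Meis1 or Hoxa9 in leukaemia, 0 changed, 13 (68.4%) lay above 0 against 53.9% of all genes, and the median was 0.053. Igf1, a growth factor gene, had the largest difference (0.33, SE 0.139, adjusted p = 0.374 by limma), from 368 ± 72.1 to 461 ± 39.7 (SD, n = 3 each), with overlapping groups. Without DMSO replicate 2 it was 0.18. Cd34, a surface marker of progenitors that was named after its values were seen, had the lowest adjusted p of the list (0.177 by limma). It was at 1615 ± 61.2 and 1957 ± 87.1 (SD, n = 3 each), and its groups did not overlap. At an unadjusted limma p under 0.05 these 4 lists held 1 of 9, 0 of 10, 2 of 11 and 3 of 19 genes, against 12.7% of all genes.

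**Figure D4:**
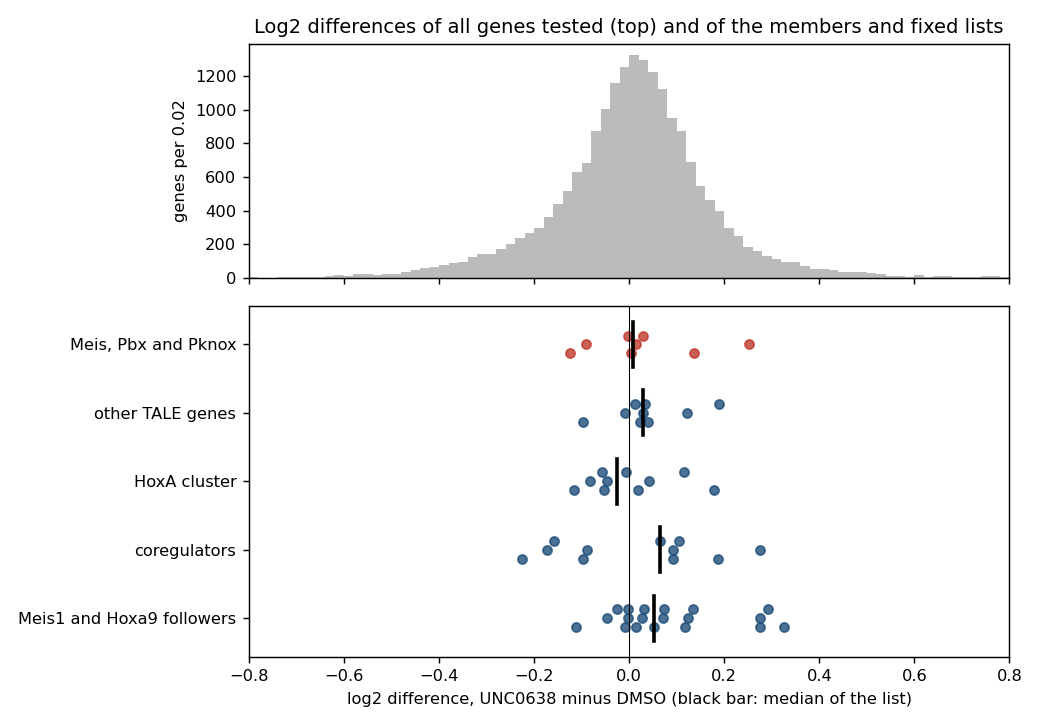
Log2 difference, UNC0638 minus DMSO, as a histogram of all genes tested (top, genes per bin of 0.02, for differences up to 0.8 either way, beyond which 89 genes lie) and as 1 point per gene for the cofactor family (red) and the 4 lists (blue), with black bars at the list medians. The family's points run from -0.12 to 0.25 and the list medians lie between -0.026 and 0.066, close to the median of 0.012 for all genes.

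RefSeq promoter windows on GRCm38.p6, 250 bases before to 50 after the gene start, were held for 5 of the 8 genes. They were chr11:19018920-19019219 (minus strand) for Meis1, chr2:116064570-116064869 (minus strand) for Meis2 and chr7:16175145-16175444 (plus strand) for Meis3. Those of Pbx2 and Pbx4 were chr17:34592009-34592308 and chr8:69832374-69832673, both on the plus strand. These windows held 13 to 29 CpG dinucleotides, against a median of 7 over all 32851 windows, with the most in Pbx2 and the fewest in Meis2. Each was searched on both strands for the letters TGACAG, known for Meis and Pknox proteins, TGATTGAC, known for Pbx with Meis or Pknox, and TGATNNAT, known for Pbx with Hox. The TGATTGAC letters overlap the start of TGACAG when the latter follows directly. There were 0 matches in the 5 windows, and 19.2%, 0.77% and 8.85% of all windows of that length held these letters. Pbx3, Pknox1 and Pknox2 were not searched.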

How the data were processed

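RNA from 3 DMSO and 3 UNC0638 samples was labelled as biotinylated cRNA from 6 ug of total RNA, per the labels' protocols. The authors deposited 1 processed intensity per probe set and array, of 34760 probe sets. For software, background correction and normalization: not given in the sources used here. The values are linear, from 2.74 to 19527, and were used as deposited.

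GEO's platform annotation gave 21640 probe sets 1 gene symbol, 1321 several and 11799 none, and the former stood for 19937 genes. Log2(intensity + 16) was fitted on group alone in limma 3.58.1 (R 4.3.3; lmFit, eBayes, Benjamini-Hochberg over all genes, threshold 0.05). The procedure was tested on simulated data. Named genes are the 8 members, from each list, none of which had a gene past the threshold, the gene with the largest absolute difference, and the 3 profiles nearest to the member with the smallest p. Members, lists, markers and alternatives were chosen with earlier results of these data known, and the members have no test adjusted over them alone. Alternatives were quantile normalization, median centring, leaving out the dimmest 40% of genes, averaging or separately testing probe sets, array weights, a prior with trend and robust estimation, pseudocounts of 1 and 64, a stricter threshold of 0.01, a replicate block, and each array left out. Figures were drawn with matplotlib 3.10.9.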

Additional observations from a re-analysis of the deposited data

How the results depend on the processing

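The count of 0 changed cofactors, and of 0 changed genes among the 49 of the 4 lists, held under all 17 alternatives in limma. The filter on dim genes, however, left Meis2 and Pknox2 untested and kept only 36 of the 49 list genes. As reported, 0.672% of all genes were called, so counts of 0 in sets this small are near the background. Pbx3 had an unadjusted limma p above 0.05 under 1 of the alternatives, without DMSO replicate 2 (0.0504). Over all genes the count of 134 was 18 at a threshold of 0.01, 49 with a pseudocount of 64, 73 with the replicate block, and 10 to 69 with 1 array left out, and it was 192 with the dimmest 40% of genes left out and 182 with the trended robust prior. The share of rises among the calls went from 55.2% to 43.5% under median centring and to 65.3% with a pseudocount of 64. Without UNC0638 replicate 1 it was 70% of only 10 calls, and without UNC0638 replicate 2 it was 71% of 31 calls. Same-numbered samples had correlations of their deviations of -0.066, 0.11 and 0.017, and the others ran from -0.13 to 0.11. Not every sample correlated best with its own number. These values gave no sign of pairing by number, but with 3 samples per group they cannot exclude it. With the block, as without it, 0 cofactors were called.

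Differences near 0 changed sign. Under quantile normalization Meis2 was at -0.027 and Pbx4 at -0.011, and under median centring Meis1 was at -0.042, Meis2 at -0.032 and Pbx4 at -0.017. With 1 array left out Meis1 ran from -0.0095 to 0.017, Meis2 from -0.018 to 0.067, Meis3 from -0.10 to 0.073, Pbx2 from -0.17 to 0.0085 and Pbx4 from -0.048 to 0.12. The cause was not tested. Signal near the lower quartiles of the arrays limits what Meis2 and Pknox2 can show.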
